A study of Pseudotsuga menziesii with 66 samples.

Results

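Among 199471 transcripts counted in Douglas-fir needles (Pseudotsuga menziesii), 200 were chosen because their level through the year was highest on 30 Nov 2010. A level is given in CPM, the counts of a transcript per 1000000 counts of its library, and a date mean is the mean CPM of the trees sampled on that date. The choice took transcripts whose 16 date means averaged 10 to 1000 CPM, whose highest date mean was at least 4 times the lowest (a lowest mean under 0.1 CPM was set to 0.1 CPM), whose highest date was 30 Nov, and whose 30 Nov libraries all lay above the mean of the 16 dates. There were 4708 transcripts of that level and range. Of these, 784 were highest on 30 Nov and 731 also met the last condition. The 200 with the largest ratio of the 30 Nov mean to the mean of the other 15 dates were taken. The height of the 30 Nov level is therefore what chose them, and it is given here as a description without a test.

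The needles came from 5 trees, CCTO43, CCTO44, CCTO46, CCTO89 and CCTO90, sampled on up to 16 dates between 27 Oct 2010 and 26 Oct 2011. All are of Oregon Siskiyou low elevation seed, planted about a year before in 1 garden at Central Point, Oregon. CCTO44 and CCTO90 descend from the higher of 2 seed localities and CCTO43, CCTO46 and CCTO89 from the lower, within the same zone. A few needles of the cohort grown in 2010 were picked from each tree at about midday, so the same ageing set of needles was followed, and the labels name no treatment. RNA was read as strand-marked poly(A) libraries, 66 in all, with 5 trees on each of the first 5 dates and on 10 Mar, 2 trees on 7 Sep, 3 on each October date of 2011, and 4 on the remaining dates.

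Needles of evergreen conifers stay on the tree through winter. As days shorten and nights cool they acclimate: growth has stopped, photosynthesis is held down and excess light is dissipated as heat, sugars and protective proteins such as dehydrins build up, and tissues come to withstand freezing. In spring the process is reversed. The deposited tables identify transcripts by number and do not pair the numbers with gene names, so no gene, pathway or protein can be attached to the transcripts described here, and the needle origin of the RNA could not be checked against marker genes.

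The libraries held 9924771 to 37373284 counts, with a median of 20944426. A level of 0 counts allows up to 3 counts, which is 0.302 CPM in the shallowest library and 0.0803 CPM in the deepest. These limits, like the 95% intervals below, cover counting error only. The composition of the libraries changed with season: the 20 most abundant transcripts took 8.37% ± 0.491 of the counts on 30 Nov (SD, n = 5) and 27.0% ± 3.32 on 17 Jun (SD, n = 4). Scaling by trimmed means (TMM), which corrects for this, moved levels by at most 0.30 on the log2 scale on the mean of any date, downward on 30 Nov by 0.12 and upward on 17 Jun by 0.29. In the CCTO43 library of 26 Oct 2011 the 20 most abundant transcripts took 48.3% of the counts. The 17 Aug libraries of CCTO44 and CCTO46 each resembled the other tree more than their own. Tests and the choice were also run without these 3 libraries, and larger changes are given both ways. Date means, fitted tree levels, spreads between trees and correlations were computed only with them included.

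The 200 transcripts together held 5.64%, 4.90%, 5.36%, 5.52% and 5.38% of all counts on 30 Nov, in the order CCTO43, CCTO44, CCTO46, CCTO89 and CCTO90, an order kept below for all lists of 5 values. On 27 Oct 2010 the summed share was 1.88%, 2.51%, 2.84%, 2.50% and 3.18%. On 9 Nov it was 2.37%, 2.35%, 2.92%, 2.45% and 3.17%. The 2 dates overlapped, and each of the 5 trees stood higher on 30 Nov than on either. On 6 Jan 2011 the share was 4.24%, 3.93%, 3.94%, 4.64% and 3.04%, below 30 Nov in every tree. It averaged 1.65% ± 0.391 on 7 Feb (SD, n = 5) and 0.651% ± 0.0508 on 23 Feb (SD, n = 4), and between 10 Mar and 7 Sep the date means lay between 0.257% and 0.466%. On 7 Oct 2011 the share was 0.985%, 1.20% and 1.35% in CCTO43, CCTO44 and CCTO90, the 3 trees sampled. On 26 Oct 2011 it was 0.263%, 0.805% and 0.703% in the same trees, lower than 19 days before in each. On the TMM scale these shares were 0.479%, 0.658% and 0.604% on 26 Oct, against 0.893%, 1.06% and 1.31% on 7 Oct. In RNA of whole needles, fewer cells of a type and less RNA per cell cannot be told apart.

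**Figure D1:**
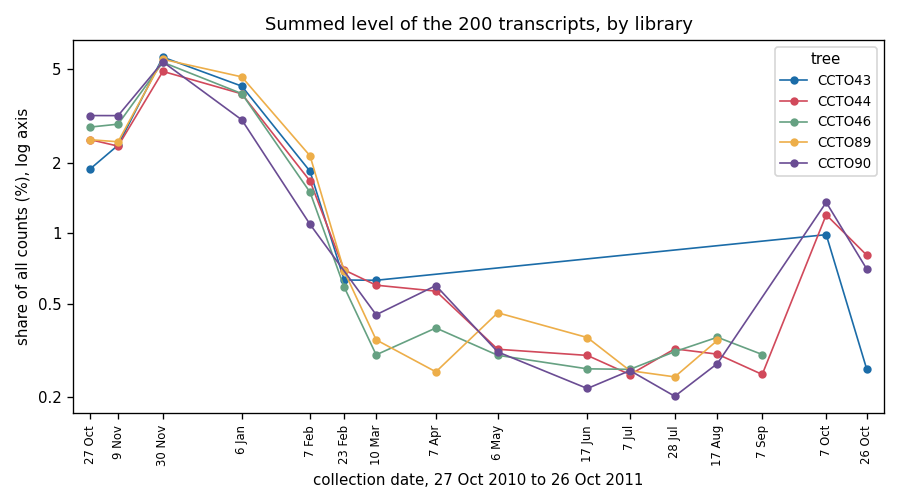
Summed share of all counts (%, log axis) held by the 200 transcripts in each of 66 libraries, against the collection date; each coloured line joins the dates available for 1 tree, so the CCTO43 line spans dates on which that tree has no library. The 5 trees lay between 4.90% and 5.64% on 30 Nov, and the date means were between 0.257% and 0.466% from 10 Mar to 7 Sep.

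The typical transcript had reached about the same level on both autumn dates and then stood about 2-fold higher on 30 Nov. As a percentage of its own 30 Nov mean, the median transcript was at 49.0% on 27 Oct, 49.5% on 9 Nov, 72.3% on 6 Jan, 28.3% on 7 Feb and 10.6% on 23 Feb. From 10 Mar to 7 Sep the median stayed between 5.00% and 7.97%. It was 23.0% on 7 Oct 2011 and 11.4% on 26 Oct 2011. The level on 30 Nov exceeded that on 9 Nov at least 2-fold for 104 transcripts and at least 4-fold for 20. It exceeded that on 6 Jan at least 2-fold for 20. After the peak, 20 transcripts were first under 50% of their 30 Nov level on 6 Jan, 167 on 7 Feb and 13 on 23 Feb. A total of 185 transcripts were lower on every date from 23 Feb to 7 Sep than on any of the 4 dates from 27 Oct to 6 Jan. In 7 transcripts a date mean between 17 Jun and 7 Sep exceeded 25% of the 30 Nov level, the highest being 33.9% for psme_t030512, which was chosen after its values were seen.

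A peak that fell away on both sides was the exception. Only 8 of the 200 transcripts were at least 2-fold higher on 30 Nov than on both 9 Nov and 6 Jan: psme_t036105, psme_t179129, psme_t024510, psme_t014797, psme_t026394, psme_t017429, psme_t035442 and psme_t005249. The 4 of these that no naming rule covers, psme_t024510, psme_t017429, psme_t035442 and psme_t005249, were listed after their values were seen. The transcripts otherwise differed in what stood beside the peak. The second-highest date mean fell on 6 Jan for 148, on 27 Oct 2010 for 26, on 9 Nov for 22, on 7 Feb for 2 and on 7 Oct 2011 for 2. Those second highest on 6 Jan had a median of 41.6% of the 30 Nov level on 27 Oct, 45.1% on 9 Nov and 78.8% on 6 Jan. Those second highest on 27 Oct had 66.1%, 58.8% and 53.1% on the same 3 dates, and those second highest on 9 Nov had 63.6%, 73.7% and 57.4%. These 3 sets were formed from the values they show. On 7 Feb the medians of the 3 sets were 28.4%, 33.5% and 24.3%. On 7 Oct 2011 the set second highest on 6 Jan was back at a median of 17.6%, and the sets second highest on 27 Oct and 9 Nov at 29.8% and 34.4%.

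**Figure D2:**
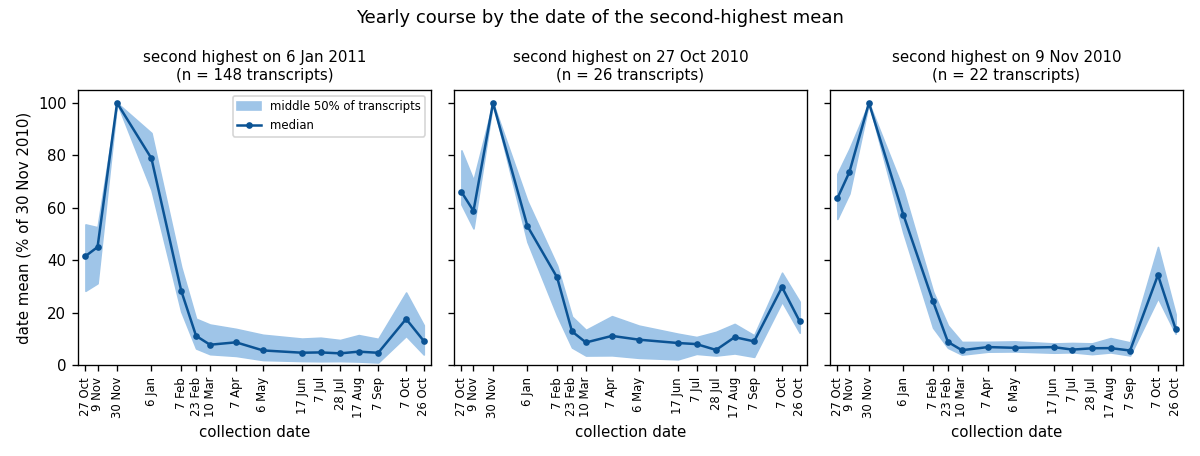
Date mean of each transcript as a percentage of its 30 Nov 2010 mean, for the transcripts whose second-highest date was 6 Jan 2011 (n = 148), 27 Oct 2010 (n = 26) or 9 Nov 2010 (n = 22); the line is the median and the band the middle 50% of transcripts. In the first set the 6 Jan median is 78.8% and in the other sets 53.1% and 57.4%, and each set has a small second maximum on 7 Oct 2011.

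The ratio that ranked the transcripts ran from 13.2 for psme_t122871 to 3.47 for psme_t018899, with a median of 4.69. The last 3 taken, psme_t005606, psme_t012794 and psme_t018899, had ratios of 3.48, 3.47 and 3.47. The first 3 not taken, psme_t024564, psme_t008761 and psme_t020956, had 3.46, 3.45 and 3.43, so the set has no natural edge. Levels on 30 Nov ran from 34.2 to 3564 CPM, with a median of 125 CPM. CPM values are not divided by transcript length, so an order or ratio of CPM between transcripts is one of counts, not of molecules.

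Levels of psme_t122871, first by ratio, were 38.8, 277, 38.8, 337 and 398 CPM on 30 Nov and 64.2, 211, 67.2, 353 and 262 CPM on 6 Jan. On 9 Nov they were 7.48, 13.2, 1.61, 10.3 and 39.6 CPM. On 17 Jun, in CCTO44, CCTO46, CCTO89 and CCTO90, they were 1.48, 0.0473, 0.0546 and 0.238 CPM. Every tree was thus far above its own autumn level on 30 Nov, but CCTO43 and CCTO46 reached levels several-fold below the other 3 trees. Levels of psme_t034355, second by ratio, were 96.7, 74.4, 115, 116 and 21.5 CPM on 30 Nov, with CCTO90 lowest, and averaged 16.0 ± 7.43 CPM on 9 Nov and 61.1 ± 45.8 CPM on 6 Jan (SD, n = 5 each). Neither of the 7 Sep libraries held a count of it, which allows up to 0.104 CPM over both. The same held for psme_t036105, the third by ratio, and for psme_t158880, psme_t045064 and psme_t130419, the last 3 named after their values were seen.

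The rise was most abrupt in psme_t081851. Its levels were 338, 440, 351, 360 and 458 CPM on 30 Nov, against 10.4, 11.1, 8.06, 8.04 and 8.76 CPM on 9 Nov, 21 days before. No library of 9 Nov came near any of 30 Nov, and the ratio of the date means was 42.1. On 6 Jan the levels were 223, 408, 237, 330 and 357 CPM, and on 7 Feb 17.4, 25.5, 9.15, 10.1 and 6.21 CPM. A further high level was seen on 10 Mar in CCTO43, CCTO44 and CCTO90, at 209, 193 and 215 CPM, whereas CCTO46 and CCTO89 had 21.6 and 22.3 CPM. The next largest ratio of 30 Nov to 9 Nov was 15.1, for psme_t122871.

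Others high in the ranking also stood several-fold higher on 30 Nov than on 9 Nov. On 27 Oct, 9 Nov, 30 Nov and 6 Jan, psme_t052322 averaged 61.6 ± 13.2, 94.3 ± 35.3, 524 ± 190 and 418 ± 156 CPM (SD, n = 5 each). On the same dates psme_t053267 averaged 140 ± 34.4, 203 ± 85.5, 833 ± 128 and 681 ± 131 CPM. The date means of both had fallen below 3 CPM by 17 Jun, at 1.11 ± 1.88 and 1.76 ± 2.75 CPM (SD, n = 4 each). The spread between trees exceeded the mean in each, so not every tree was below 3 CPM. On 30 Nov, psme_t062899 averaged 88.8 ± 19.3 CPM, psme_t002248 146 ± 55.5 CPM, psme_t063047 308.5 ± 50.9 CPM and psme_t179129 122 ± 44.2 CPM (SD, n = 5 each). Among these 4, psme_t002248 kept most of its level to 6 Jan, at 125 ± 38.1 CPM, and the other 3 stood at 47.6 ± 14.2, 162.1 ± 18.5 and 59.3 ± 16.1 CPM.

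The transcript with the most counts on 30 Nov was psme_t043077, with 5365, 2796, 3581, 3680 and 2399 CPM. On 27 Oct it had 1564, 1606, 2175, 1019 and 2885 CPM. CCTO90 was the exception, since its 27 Oct library stood above its 30 Nov library. On 6 Jan the levels were 4492, 1900, 3137, 2909 and 992.3 CPM, again with CCTO43 highest and CCTO90 lowest, and by 17 Jun they had fallen to 13.2, 15.5, 34.01 and 1.59 CPM in the 4 trees sampled. By contrast psme_t021951 formed a plateau: date means were 2169 ± 449 CPM on 27 Oct, 1875 ± 582 on 9 Nov, 2642 ± 213 on 30 Nov and 2331 ± 316 on 6 Jan (SD, n = 5 each), and its libraries overlapped on all 4 dates. In psme_t034516 the 30 Nov libraries, at 1344 to 1874 CPM, lay above all those of 9 Nov, at 287 to 881 CPM. Likewise psme_t041126 had 1452 to 1993 CPM on 30 Nov, against 384 to 826 CPM on 9 Nov. The fifth by level, psme_t020318, averaged 1607 ± 212 CPM on 30 Nov and 1233 ± 247 CPM on 27 Oct, with overlapping libraries.

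Of the transcripts whose second-highest date was in autumn, 4 are described. In psme_t023850 the date means were 82.7 ± 43.4 CPM on 27 Oct, 69.4 ± 30.7 on 9 Nov, 93.4 ± 16.3 on 30 Nov and 34.04 ± 6.77 on 6 Jan (SD, n = 5 each), and CCTO89 and CCTO90 were higher on 27 Oct than on 30 Nov. In psme_t026394 they were 25.2 ± 13.1, 18.2 ± 8.85, 48.6 ± 23.9 and 15.6 ± 7.14 CPM on the same dates, and here all 5 trees were higher on 30 Nov than on 9 Nov. In psme_t014797 they were 161.9 ± 115, 171 ± 80.4, 365 ± 169 and 163 ± 103.3 CPM, nearly the same on either side of the peak. In psme_t023128 the 30 Nov mean was 73.3 ± 20.0 CPM and the 9 Nov mean 54.1 ± 12.6 CPM, with overlapping libraries.

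**Figure D3:**
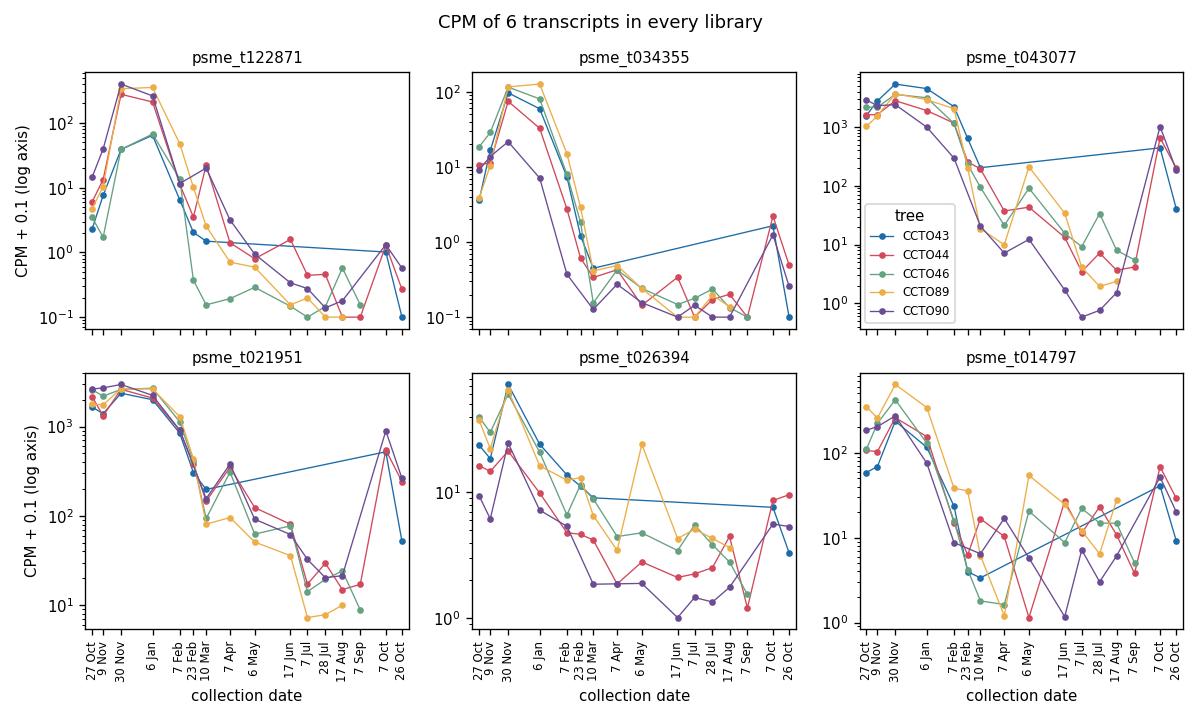
Level (CPM + 0.1, log axis) of 6 transcripts in every library against the collection date, with 1 coloured line per tree: the 2 largest ratios (psme_t122871, psme_t034355), the 2 highest on 30 Nov (psme_t043077, psme_t021951) and the largest ratio among those second highest on 27 Oct (psme_t026394) and on 9 Nov (psme_t014797). Lines join the dates available for a tree; psme_t122871 reached 38.8 CPM in CCTO43 and CCTO46 on 30 Nov and 277 to 398 CPM in the other 3 trees.

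Whether the 200 had moved during the autumn before the peak was tested between 9 Nov and 27 Oct 2010. The choice of the transcripts treats all dates other than 30 Nov alike, so it names no direction between these. It did use the values of every date. Where neighbouring dates are alike, it can favour dates near the peak over distant ones, also in the comparisons below. The summed share was 2.65% ± 0.371 on 9 Nov and 2.58% ± 0.479 on 27 Oct (SD, n = 5 each), and on the TMM scale 2.29% and 2.43%, so the direction turned with the scaling and the difference was smaller than the spread. By edgeR's quasi-likelihood test with the tree as block and Benjamini-Hochberg adjustment, 0 of the 200 were higher on 9 Nov and 1 was lower, at an adjusted p under 0.05. Of all 60931 transcripts tested, 0.149% were called higher and 0.0345% lower, and of those of like level and range 0.17% and 0.191%. At an unadjusted p under 0.05, 8 of the 200 were higher and 14 lower, and DESeq2 called 1 higher and 1 lower. The median log2 change was -0.05, with a middle 50% from -0.30 to 0.13. The transcript called was psme_t011739, with 25.6, 32.7, 39.0, 30.7 and 39.3 CPM on 9 Nov, against 38.5, 62.4, 56.5, 52.9 and 67.1 CPM on 27 Oct. It was lower in 5 of 5 trees (log2 change -0.85, SE 0.19, edgeR adjusted p = 0.036), and the call was lost when CCTO43, CCTO44, CCTO46 or CCTO90 was left out. A fit of only the libraries of the 2 dates called 19 higher and 10 lower. The shares of all transcripts called in that fit are not given here, so these counts are not read as a trait of the 200.

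On 6 Jan the transcripts were on balance above 9 Nov. In that comparison edgeR called 68 of the 200 higher and 3 lower, and the median log2 change was 0.58, against 0.00 over all transcripts tested. Among all tested, 8.78% were called higher and 7.51% lower. Among the 4708 of like level and range these shares were 19.2% and 16.4%, so the 200 were called higher more often than either background and lower less often. Without CCTO44 the count called higher was 40, and with no tree block 37. The largest called increase was that of psme_t081851, with the values given above (log2 change 5.09, SE 0.55, edgeR adjusted p = 1.92e-09, higher in 5 of 5 trees). It was followed by psme_t122871 (log2 change 3.85, SE 0.65, edgeR adjusted p = 2.05e-05, 5 of 5 trees).

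Against that balance, 3 transcripts were called lower on 6 Jan than on 9 Nov. In psme_t003152 levels were 31.9, 14.6, 23.3, 83.7 and 10.9 CPM on 6 Jan, against 113, 104.9, 54.0, 137 and 125 CPM on 9 Nov (log2 change -1.74, SE 0.59, edgeR adjusted p = 0.033). In psme_t016420 they were 42.8, 15.4, 27.0, 35.7 and 22.6 CPM on 6 Jan, against 66.4, 47.0, 79.8, 35.8 and 101.3 CPM on 9 Nov (log2 change -1.20, SE 0.36, edgeR adjusted p = 0.016). In psme_t004504, named because it completes the 3, the log2 change was -0.54 (SE 0.18, edgeR adjusted p = 0.028). All 3 were lower in 5 of 5 trees, and their libraries overlapped between the dates. The calls of all 3 were lost when CCTO44, CCTO46 or CCTO90 was left out, and without CCTO89 there were 6 such calls.

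Between winter and summer nearly all of the 200 differed. The choice favours a higher level on 6 Jan, the date next after the peak, than on 17 Jun, far from it. The backgrounds were not chosen by such a peak, so the count in part restates the choice. On 6 Jan 199 were higher than on 17 Jun and 0 were lower by edgeR, with 30.5% and 27.3% of all transcripts tested called in those directions and 51.0% and 33.5% of those of like level and range. No transcript was lower at an unadjusted p under 0.05, and DESeq2 called 200 higher and 0 lower. The median log2 change was 3.24, against 0.11 over all transcripts tested, and the smallest was 1.09. All 200 were higher on 6 Jan in each of the 4 trees with both dates. The transcript not called was psme_t035442, at 75.4 ± 30.5 CPM on 6 Jan (SD, n = 5) and 23.3 ± 8.66 CPM on 17 Jun (SD, n = 4), with an edgeR adjusted p of 0.055. Leaving out the CCTO43 library of 26 Oct 2011 brought it past the threshold. The largest fitted changes, of psme_t017499 and psme_t023613, rest on 1 count each in the 4 June libraries. In psme_t017499 the 5 January libraries held 2560 counts against that 1, a ratio of the CPM of the summed counts of 1991 with an exact 95% interval of 357 to 78679. In psme_t023613 they held 2016 counts, a ratio of 1568 with an interval of 281 to 61966.

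A year after the first sampling most of the 200 stood lower in the same cohort of needles. The choice favours a higher level on 27 Oct 2010, near the peak, than on 26 Oct 2011, far from it. The backgrounds were not chosen by such a peak, so the count in part restates the choice. On 26 Oct 2011, edgeR called 186 of the 200 lower than on 27 Oct 2010 and 0 higher, where 15.0% of all transcripts tested were called lower and 13.8% higher, and 40.0% and 19.6% of those of like level and range. None was higher at an unadjusted p under 0.05 or by DESeq2, which called 183 lower. The median log2 change was -2.04, against -0.08 over all transcripts tested. A lower level in each of the 3 trees with both dates was seen for 194. Without the CCTO43 library of 26 Oct 2011, 81.0% of the 200 were called lower. Only psme_t029060 had a fitted change that was not negative (log2 change 0.00, SE 0.52). It had 28.8 ± 18.7 CPM on 26 Oct 2011 (SD, n = 3) and 29.2 ± 23.6 CPM on 27 Oct 2010 (SD, n = 5), and was picked out after its value was seen.

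The largest called decreases over the year were those of psme_t052322 and psme_t036105. Levels of psme_t052322 were 0.612, 1.24 and 2.12 CPM on 26 Oct 2011 in CCTO43, CCTO44 and CCTO90, against 75.6, 52.1 and 63.4 CPM in the same trees on 27 Oct 2010 (log2 change -5.70, SE 0.89, edgeR adjusted p = 3.28e-06, lower in 3 of 3 trees). Levels of psme_t036105 were 0, 0.674 and 1.10 CPM on 26 Oct 2011, against 1.18, 23.6 and 129 CPM on 27 Oct 2010 (log2 change -5.59, SE 0.96, edgeR adjusted p = 1.44e-05, lower in 3 of 3 trees). The 2010 libraries of psme_t036105 themselves spanned 0.738 CPM in CCTO89 to 129 CPM in CCTO90. Its count of 0 in CCTO43 allows up to 0.230 CPM, and its levels on 26 Oct 2011 were low in every tree sampled.

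In the second autumn the levels did not climb steadily. Date means were higher on 7 Oct 2011 than on 7 Sep for 95.5% of the 200 and higher on 7 Oct than on 26 Oct 2011 for 196. The 7 Sep mean is of CCTO44 and CCTO46 and the 7 Oct mean of CCTO43, CCTO44 and CCTO90, so date and tree are mixed. The 26 Oct mean includes the CCTO43 library in which 20 transcripts took 48.3% of the counts. In CCTO44 the median transcript was at 4.97%, 24.4% and 16.5% of its 30 Nov level on 7 Sep, 7 Oct and 26 Oct. The same counts over all transcripts were not made. Against 27 Oct 2010, edgeR called 110 lower on 7 Oct 2011 and 0 higher, with a median log2 change of -1.08, where 8.72% of all transcripts tested were called lower and 8.44% higher, and 29.0% and 12.9% of those of like level and range. None was higher at an unadjusted p under 0.05 or by DESeq2, which called 104 lower. The count of 110 also in part restates the choice, since 27 Oct 2010 is near the peak and 7 Oct 2011 far from it. The largest called decreases were in psme_t025659, at 5.55, 3.44 and 6.01 CPM on 7 Oct 2011 in CCTO43, CCTO44 and CCTO90, against 66.8, 65.1 and 95.7 CPM on 27 Oct 2010 (log2 change -5.03, SE 1.03, edgeR adjusted p = 0.00052), and in psme_t024828, at 13.9, 1.49 and 3.15 CPM, against 63.5, 17.5 and 100.7 CPM (log2 change -4.48, SE 0.92, edgeR adjusted p = 0.00049). These are also the 2 transcripts whose second-highest date was 7 Feb.

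Between the October dates of 2011, a comparison added after the date means were seen, edgeR called 42 of the 200 lower on 26 Oct than on 7 Oct and 0 higher. Of all transcripts tested, 1.29% were called lower and 1.02% higher, and of those of like level and range 4.65% and 3.08%. None was higher at an unadjusted p under 0.05 or by DESeq2. The median log2 change was -0.87, and 151 were lower in all 3 trees. The count rests on few libraries: it was 14 without the CCTO43 library of 26 Oct 2011, 11 without CCTO43 or without CCTO44, 18 without CCTO90, and 0 in a fit of the 2 dates alone. In psme_t016420 levels were 2.30, 3.87 and 6.05 CPM on 26 Oct, against 41.8, 39.8 and 77.5 CPM on 7 Oct, with no overlap (log2 change -3.53, SE 0.52, edgeR adjusted p = 1.81e-05). In psme_t021487 they were 0.383, 9.21 and 6.28 CPM, against 22.0, 70.9 and 82.6 CPM (log2 change -3.57, SE 0.80, edgeR adjusted p = 0.0080).

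**Figure D4:**
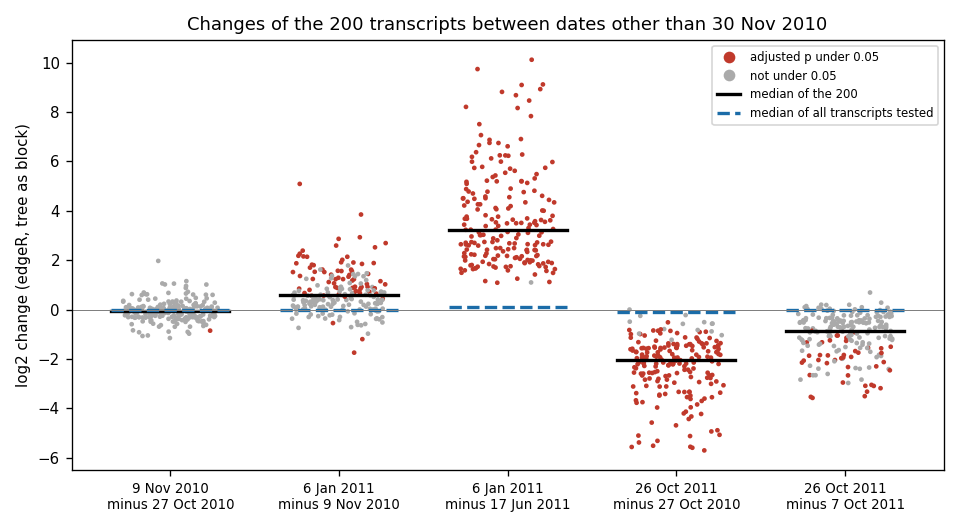
Log2 change of each of the 200 transcripts (edgeR, tree as block) between pairs of dates other than 30 Nov 2010, later date minus earlier except for 6 Jan minus 17 Jun 2011; each point is a transcript, red where the adjusted p is under 0.05, with the median of the 200 in black and that of all transcripts tested dashed in blue. The medians of the 200 are -0.05, 0.58, 3.24, -2.04 and -0.87 in the order shown.

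The trees agreed on the date of the maximum to different degrees. They had libraries on 9, 16, 14, 13 and 14 dates, so a maximum was picked from unlike numbers of dates. CCTO43 had no library from 7 Apr to 7 Sep. The library with the highest CPM in the tree was that of 30 Nov for 183 transcripts in CCTO43, 145 in CCTO44, 170 in CCTO46, 126 in CCTO89 and 174 in CCTO90. It was that of 6 Jan for 16, 39, 17, 53 and 2, and that of 27 Oct 2010 for 0, 6, 11, 14 and 19. CCTO89 thus had the most maxima on 6 Jan and CCTO90 the fewest. In the median transcript the 6 Jan level was 71.6%, 78.6%, 69.2%, 85.1% and 52.6% of the 30 Nov level of the same tree. On 6 Jan CCTO90 was the lowest tree for 95 transcripts and CCTO89 the highest for 84. Before the peak the order was different: CCTO90 was highest for 86 transcripts on 27 Oct and for 93 on 9 Nov, and CCTO43 was lowest for 91 on 27 Oct. On 30 Nov itself no tree was highest for more than 60 of the 200.

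To see whether the timing held in a tree that had no part in the choice, the 200 were chosen again from 4 trees and read in the left-out one. The share whose highest library in the left-out tree was that of 30 Nov was 85.0% in CCTO43, 64.0% in CCTO44, 79.5% in CCTO46, 49.0% in CCTO89 and 80.5% in CCTO90. Over all transcripts of like level and range in the other trees it was 17.7%, 12.4%, 15.0%, 9.91% and 18.7%, and over all those of 10 to 1000 CPM whatever their range it was 7.99% to 13.5%. The highest library was that of 30 Nov or 6 Jan for 98.5%, 88.5%, 91.0%, 86.5% and 82.5% of the transcripts so chosen, with backgrounds of 36.7%, 30.6%, 30.6%, 31.8% and 31.2%. The trees share the sampling days, so this compares trees and not years. Because the trees differ in their number of dates, each share is best read beside the background of its own tree.

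**Figure D5:**
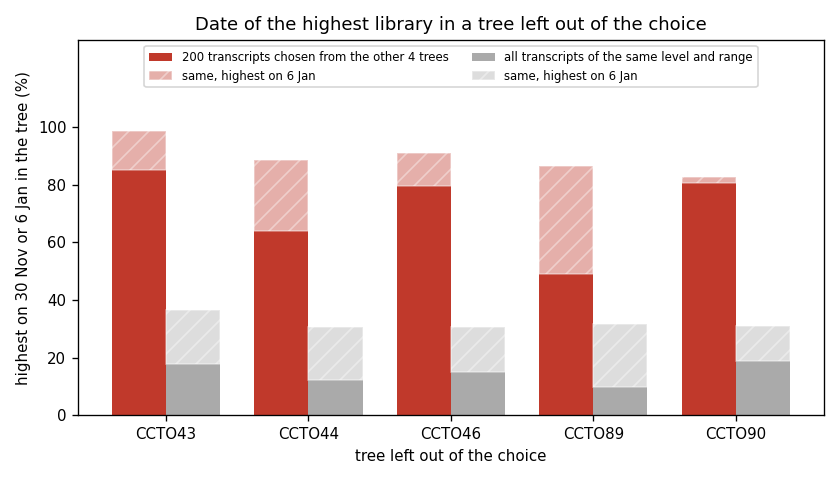
Percentage of transcripts whose highest library in a left-out tree was that of 30 Nov (solid) or 6 Jan (hatched, stacked on it), for 200 transcripts chosen from the other 4 trees (red, left bar) and for all transcripts of like level and range in those trees (grey, right bar). The solid red bars run from 49.0% in CCTO89 to 85.0% in CCTO43, and the solid grey bars from 9.91% to 18.7%.

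Trees differed in level about as often as for other transcripts. With the date in the model, 149 of the 200 (74.5%) differed between trees by edgeR's quasi-likelihood F test at an adjusted p under 0.05, close to the 71.5% of all transcripts tested, the 75.3% of those of 10 to 1000 CPM and the 76.8% of those of like level and range. This test treats the libraries of a tree on its dates as independent, although they are repeated measures of that tree. Fitted levels of the trees lay at least 2-fold apart for 44.5% of the 200, against 32.3% of those of like level and range. Both trees of the higher locality lay above all 3 others for 50 of the 200 and below them for 24, where 15.1% and 13.5% of those of like level and range did so. The difference between localities was not tested. On 30 Nov the highest tree exceeded the lowest by a median of 1.88-fold over the 200, from 1.15-fold in psme_t072017 to 12.1-fold in psme_t036476, both named after their values were seen. Levels of psme_t072017 were 228, 225, 218, 252 and 231 CPM, and those of psme_t036476 were 23.8, 231, 26.8, 19.1 and 74.6 CPM.

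The smallest p values between trees belonged to psme_t017964, psme_t007193 and psme_t055322, with edgeR adjusted p of 1.49e-17, 1.12e-16 and 1.05e-14. These p values rest on repeated measures of the same trees. On 30 Nov psme_t017964 had 239, 158, 485, 368 and 77.6 CPM, and on 9 Nov 69.7, 74.8, 331, 236 and 34.99 CPM. CCTO46 and CCTO89 were highest and CCTO90 lowest on both dates. In psme_t007193 the 30 Nov levels were 33.9, 77.3, 53.7, 36.6 and 73.0 CPM, with both trees of the higher locality above the others. In psme_t055322 they were 60.0, 112, 42.6, 390 and 46.4 CPM, and CCTO89 was also highest on 27 Oct, 9 Nov, 6 Jan and 7 Feb, at 126, 177, 397 and 190.9 CPM. Where the reference holds alleles or near-identical copies as separate transcripts, reads of a tree may go to one of them, and such a difference cannot be told apart from one in total level.

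The spread between trees was narrowest at the peak. The median coefficient of variation of the 200 was 26.3% on 30 Nov and between 31.4% and 56.2% on the other dates. For transcripts of like level and range it was 23.7% on 30 Nov and between 22.2% and 48.6% on the others. Because the choice asked each 30 Nov library to be high, this is a description of the chosen set.

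Some of the transcripts moved almost as one. The correlation of log2 CPM over the 66 libraries had a median of 0.75 over pairs of the 200, which the shared peak in part sets. After date and tree were removed, the median was 0.28, against 0.02 over pairs of transcripts of like level and range, and 13 pairs formed by 22 transcripts reached 0.95. The 200 share a peak date and the background does not. Differences in timing between trees were not removed, so the shared peak may in part set the 0.28 too. Pairs reaching 0.95 were not counted in the background. The closest pair by this measure was psme_t005684 and psme_t007314, with a correlation of 0.99. The abundant psme_t041126 was paired with psme_t070617 at 0.98, and exceeded it 3.78-fold in CPM in the median 30 Nov library. Pairs were named after their values were seen. Libraries of a date share the sampling day, and without sequences, copies of 1 gene or pieces of 1 transcript cannot be told from separate genes.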

How the data were processed

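Needle RNA of 5 trees on up to 16 dates was read on an Illumina HiSeq from poly(A) libraries with a dUTP-marked strand (labels' protocols). Bowtie2 2.2.3, DESeq and CASAVA 1.8 are the tools in the submitters' processing notes, without their roles. Which transcript set the reads were aligned to, and how they were counted, is not given in the sources used here. The authors deposited whole-number counts for 199471 transcripts in 66 libraries, of which 28846 had no count anywhere, and a table of normalized signal values for 36145 transcripts, which include all 200 described. Each column of those signal values deposited by the authors equals the counts divided by 1 factor, with a largest relative deviation of 1e-14. A table of interpolated signal, also deposited by the authors, was not used. The study's design text speaks of 73 libraries; the others were not analysed here.

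From the counts, CPM were computed on column sums. Models were fitted to all 66 libraries in edgeR 4.0.16 (R 4.3.3, limma 3.58.1): filterByExpr by date with a minimum count of 10 (60931 transcripts kept), TMM factors, date and tree as terms, robust quasi-likelihood F tests, and Benjamini-Hochberg adjustment over all transcripts tested. DESeq2 1.42.0 served as an alternative. The same trees return on each date, so the tree was the block; after date means were removed, 64 of 66 libraries correlated best with other libraries of their own tree. Replicates of a date are separate trees that share the day. Correlations used log2 CPM with a prior count of 2. The script was tested on simulated data with known changes. Alternatives were other scalings, no filter on low counts, DESeq2, no tree block, fits of 2 dates, leaving out each tree or a doubtful library, and other versions of the choice.

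Transcripts named are the 10 largest ratios, the 5 highest on 30 Nov, the 3 last taken and 3 first not taken, the 2 largest ratios of each second-highest date with 10 or more transcripts, the 2 largest called changes per contrast and direction that moved alike in every tree, and the 3 smallest p between trees; others are said to be chosen after their values were seen. The 200 transcripts and these lists were chosen with earlier results of these data known. Gene lists for needles were not used, because identifiers are not paired with names.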

Additional observations from a re-analysis of the deposited data

Results flagged for a closer look

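A library far from the others of its date was looked for in 79 groups of 4 or 5 values, and chance flags about 1 group in 20. It was found 8 times. On 6 May 2011 the summed share of the 200 transcripts was 0.457% in CCTO89, apart from the other 3 trees. On 30 Nov 2010 psme_t034516 stood low in CCTO90 at 1344 CPM, and psme_t012794 and psme_t023613 stood high in CCTO90 at 487 and 57.4 CPM. On 6 Jan 2011 psme_t003152 and psme_t017499 stood high in CCTO89 at 83.7 and 51.2 CPM. In psme_t055322 CCTO89 stood apart on 30 Nov at 390 CPM and on 6 Jan at 397 CPM. All 8 values belong to CCTO89 or CCTO90.

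The sign of the change differed between the trees of the 2 seed localities in 1 named transcript, and in CCTO44 and CCTO90 the change was small. Named transcripts were searched over several pairs of dates, so 1 such case can arise by chance. Between 9 Nov and 27 Oct 2010, psme_t016420 had a joint log2 change of 0.11. On 9 Nov it had 47.0 and 101.3 CPM in CCTO44 and CCTO90, against 50.5 and 104 CPM on 27 Oct, and 66.4, 79.8 and 35.8 CPM in CCTO43, CCTO46 and CCTO89, against 39.3, 59.1 and 25.5 CPM. The difference between localities was not tested.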

How the results depend on the processing

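Of the summary counts under an alternative, 141 stayed equal to the main count or within 1.5 times of it, and 28 moved further. Counts of called transcripts under an alternative are given without the share of all transcripts called in the same fit. For single transcripts 177 values kept their side of the threshold and 25 lost a call, and 5 background shares moved. No fitted change of a single transcript reversed. The summed share on 9 Nov 2010 against 27 Oct turned direction with TMM scaling, as given above. The winter against summer count of 199 stayed between 196 and 199 with a tree left out or no replicate block, and the year-on-year count of 186 lower between 81.0% and 93.5% of the 200 over the alternatives with the same dates; with 7 Oct in place of 26 Oct 2011 it was 110. The counts for 9 Nov against 27 Oct 2010 were small under most settings: higher, 1 with RLE, upper-quartile scaling or DESeq2, and 19 in a fit of the 2 dates; lower, 0 with RLE or no replicate block, 0 to 1 with a tree left out, and 10 in a fit of the 2 dates. For 6 Jan against 9 Nov the count higher was 37 with no replicate block and 40 to 79 with a tree left out; the count lower was 0 without the filter or the replicate block, 0 to 6 with a tree left out, and 7 in a fit of the 2 dates. For 26 Oct against 7 Oct 2011 the count lower was 21 without the filter, 13 with no replicate block, 11 to 48 with a tree left out, 14 without the CCTO43 library of 26 Oct and 0 in a fit of the 2 dates. The cause was not tested. Leaving out the 17 Aug libraries of CCTO44 and CCTO46 moved no count by over 1.5 times. The choice itself kept 172 to 176 of the 200 with TMM, RLE, upper-quartile scaling or the authors' normalized values, 164 with medians over trees, from 81.0% of them to 180 with a tree left out and 200 with a floor of 1 CPM. The transcripts meeting the choice's conditions numbered 632 to 862. In left-out trees the background share highest on 30 Nov over transcripts of 1 CPM or more was 6.54% to 11.3%. Low summer levels are limited by depth, and the autumn of 2011 by 3 trees.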

Other observations

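Of the 200 transcripts, 13 had a small second maximum in spring, defined after the values were seen as a date mean on 10 Mar, 7 Apr or 6 May at least 2-fold above both 23 Feb and 17 Jun. The date differed among them. CCTO90 has no library of 23 Feb, and CCTO43 has none of 7 Apr, 6 May or 17 Jun. Date and tree are thus mixed in these means, and the same count over all transcripts was not made. The spring mean was highest on 10 Mar in psme_t081851, at 132 CPM, with 10.0 CPM on 23 Feb and 9.44 CPM on 17 Jun. It was highest on 7 Apr in psme_t041126 and psme_t070617, at 248 and 67.2 CPM, with 110 and 30.0 CPM on 23 Feb and 32.5 and 11.0 CPM on 17 Jun. It was highest on 6 May in psme_t025463, psme_t028263 and psme_t021930, at 133, 91.5 and 67.8 CPM, with 61.3, 41.2 and 28.3 CPM on 17 Jun. The spring maximum of the 13 was between 4.22% and 44.5% of the 30 Nov level. The members of the last group, and psme_t041126 with psme_t070617, are also among the closest pairs by correlation, and whether they are separate genes was not tested.

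Over the 16 dates, the number of transcripts meeting the same conditions for the date of their maximum was 789 for 6 Jan and 731 for 30 Nov, and between 41 and 358 for each of the other 14 dates.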
